A study of Homo sapiens with 9 samples.

Results

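RNA polymerase II (RNAPII) transcribes protein-coding genes and many non-coding RNAs, and most of its chromatin-bound form lies at gene starts, along gene bodies and just past gene ends. RNAPII is also found away from annotated genes, for example at enhancers, where it makes short unstable transcripts, at unannotated promoters and in transcription that continues past a gene end. RECQL5 is a DNA helicase that binds RNAPII and acts on transcript elongation, and its own level is not measured by peak lists.

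The peaks described here are those RNAPII peaks whose summit lay over 10 kb from every annotated gene of any type, called gene-distant peaks. The rule used position alone and no measure of peak strength. It selected 1288 of 142069 peaks over 5 lists, or 849 regions once overlapping gene-distant peaks of different lists were merged. RNAPII ChIP-seq was performed in HEK293, a human embryonic kidney line, with an antibody that recognises all forms of RNAPII. The hairpin arm comprised cells transduced with lentivirus for a control hairpin, for RECQL5 shRNA5 or for RECQL5 shRNA7, each set against an IgG library of its own. The second arm comprised HEK293 T-REx cells carrying a plasmid, pcDNA4/TO-RECQL5, that makes RECQL5 on addition of doxycycline. These cells received 0.0 or 1.0 ng/ml doxycycline, and a single IgG library from untreated cells, whose plasmid status is not given, was taken as the background of both. Each group was 1 library, so no difference between conditions has a replicate check or a test, and every interval below is a 95% interval for counting error only.

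The lists differed widely as wholes. The control hairpin list held 5287 peaks, shRNA5 23698, shRNA7 32124, no doxycycline 47060 and doxycycline 33900. Gene-distant peaks were long in the hairpin arm, with medians of 1410 to 1473 bp, and short in the T-REx arm, with medians of 552 and 625 bp. Numbers were therefore compared within an arm. Only tags within peaks are listed, so totals per library could not be computed here, although the study's methods describe read numbers as similar among the samples compared. The hairpin-arm lists used here are shorter than the peak sets those methods describe, the control list by the largest proportion, so folds against it and peaks absent from it may partly depend on this.

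Of the 849 regions, 10 held a peak in all 5 lists. The 300 bases around the strongest gene-distant summit are given for 5 of them, on the plus strand of GRCh37 (hg19), to show how unlike one another these sites were. Capitals mark matches, on either strand, to any of 10 short promoter or enhancer letter strings that are spelled out further on. The first sequence lay upstream of the non-coding gene LINC00854, held the highest-scoring gene-distant peak of 4 lists and matched none of the strings.

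chr17:41393248-41393547: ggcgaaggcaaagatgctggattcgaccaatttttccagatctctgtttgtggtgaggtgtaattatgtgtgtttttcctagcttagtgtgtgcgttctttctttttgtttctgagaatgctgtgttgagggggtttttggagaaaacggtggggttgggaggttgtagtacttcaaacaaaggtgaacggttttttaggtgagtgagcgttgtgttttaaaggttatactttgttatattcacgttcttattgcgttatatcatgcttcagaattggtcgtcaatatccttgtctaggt

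The second lay upstream of GNA12, the gene of a G protein alpha subunit, and held the highest-scoring gene-distant peak of the control hairpin list. It is poor in CpG and matched none of the strings.

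chr7:2913805-2914104: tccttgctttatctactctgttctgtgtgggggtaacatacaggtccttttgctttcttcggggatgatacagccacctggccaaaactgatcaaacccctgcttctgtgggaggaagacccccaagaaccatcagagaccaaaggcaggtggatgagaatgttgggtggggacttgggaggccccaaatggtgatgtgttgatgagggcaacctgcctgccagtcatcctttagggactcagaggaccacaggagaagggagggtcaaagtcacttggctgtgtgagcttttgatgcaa

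The next pair, on chromosomes 21 and 6, is rich in CpG and holds the GC box, with the E-box also on chromosome 21.

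chr21:38936101-38936400: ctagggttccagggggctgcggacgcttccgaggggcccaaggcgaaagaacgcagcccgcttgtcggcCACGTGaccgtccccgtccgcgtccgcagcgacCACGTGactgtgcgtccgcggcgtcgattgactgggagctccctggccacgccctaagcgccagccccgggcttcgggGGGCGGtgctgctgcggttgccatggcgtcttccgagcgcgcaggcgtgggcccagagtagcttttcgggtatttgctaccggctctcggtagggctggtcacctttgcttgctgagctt

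chr6:157008249-157008548: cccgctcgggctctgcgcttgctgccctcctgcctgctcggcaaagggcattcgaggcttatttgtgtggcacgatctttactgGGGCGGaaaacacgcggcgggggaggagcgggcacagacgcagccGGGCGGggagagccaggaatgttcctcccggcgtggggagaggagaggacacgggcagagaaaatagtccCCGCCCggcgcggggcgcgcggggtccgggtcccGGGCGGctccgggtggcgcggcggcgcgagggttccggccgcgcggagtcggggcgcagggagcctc

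The last, past the end of the non-coding gene LINC02714, is a tandem repeat in which the AP-1 letters return every 75 bases.

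chr11:134721631-134721930: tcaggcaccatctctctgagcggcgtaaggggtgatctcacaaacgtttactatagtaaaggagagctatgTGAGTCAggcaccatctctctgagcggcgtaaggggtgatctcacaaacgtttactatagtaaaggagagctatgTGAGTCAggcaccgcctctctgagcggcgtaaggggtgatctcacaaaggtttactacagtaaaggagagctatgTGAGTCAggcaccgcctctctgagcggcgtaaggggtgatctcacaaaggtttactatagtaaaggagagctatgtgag

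Gene-distant peaks were rare in each list. There were 11 of 5287 with the control hairpin (0.208%, 0.116 to 0.372), 224 upon shRNA5 (0.945%, 0.830 to 1.08) and 321 upon shRNA7 (0.999%, 0.896 to 1.11). Without doxycycline there were 531 (1.13%, 1.04 to 1.23) and with it 201 (0.593%, 0.517 to 0.680). Sequence over 10 kb from genes made up 24.8% of the assembled genome, or 708 Mb, whereas genes took up 61.9% and the 10 kb around them 13.3%. RNAPII peaks per Mb were 163 times as frequent in genes as in gene-distant sequence with the control hairpin, and 31.4 to 61.1 times as frequent in the other lists. Peaks within 10 kb of a gene were 7.94 to 12.7 per Mb in the 4 longer lists, and in genes 11.1 to 23.6 per Mb.

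**Figure D1:**
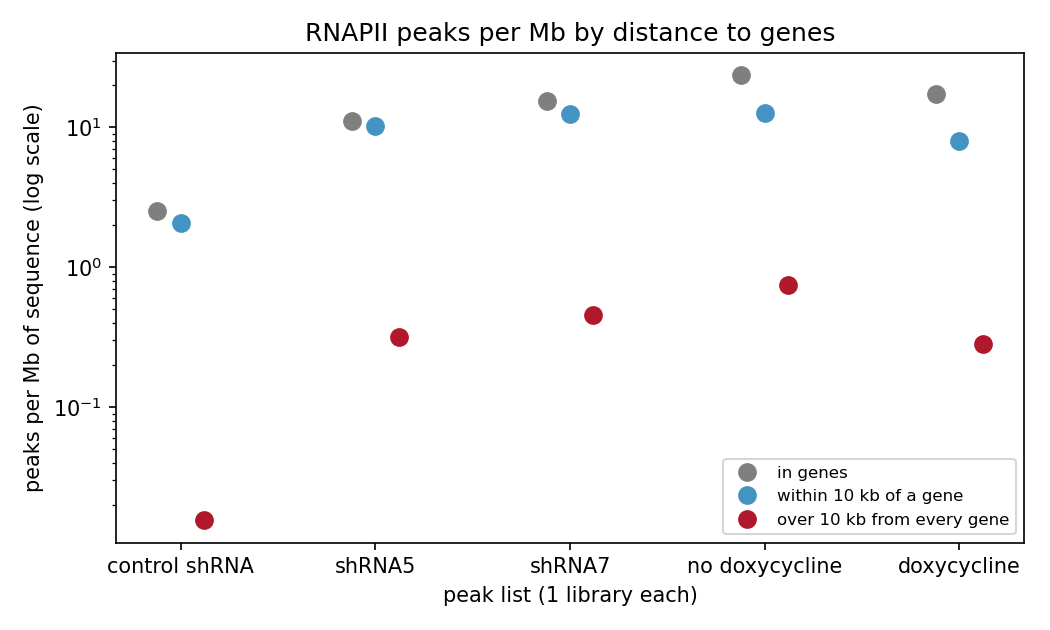
Peaks per Mb of sequence (log axis) in genes (grey), within 10 kb of a gene (blue) and over 10 kb from every gene (red), for the 5 lists, 1 library each. Gene-distant peaks ranged from 0.0155 per Mb with the control hairpin to 0.749 per Mb without doxycycline.

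Both RECQL5 hairpin lists exceeded the control list by more in gene-distant peaks than as a whole. The number of gene-distant peaks was 20.4-fold that of the control hairpin with shRNA5 (11.2 to 36.97) and 29.2-fold with shRNA7 (16.1 to 52.8), against 4.48-fold (4.35 to 4.62) and 6.08-fold (5.90 to 6.26) for all peaks. Peaks within 10 kb of a gene were 4.89-fold (4.53 to 5.28) and 5.94-fold (5.51 to 6.41) those of the control. The folds of the gene-distant class rest on 11 control peaks, and all folds against the control on a list shorter than the one described. With doxycycline, which induces RECQL5 here, the gene-distant class was smaller by more than the list, at 0.379-fold (0.322 to 0.445) that without it, against 0.720-fold (0.710 to 0.730) for all peaks and 0.623-fold (0.596 to 0.652) within 10 kb of a gene.

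The gene-distant share was lower among strong peaks. Strength is given by the significance score, which is 10 times the negative log10 of the peak's p-value and is at least 50 in these lists. Among peaks with a score of 50 to 75, 1.32% were gene-distant upon shRNA5 (1.08 to 1.62), 1.51% upon shRNA7 (1.27 to 1.79), 1.38% without doxycycline (1.24 to 1.54) and 0.726% with it (0.599 to 0.879). Among peaks with a score of at least 200 these shares were 0.413% (0.288 to 0.593), 0.613% (0.483 to 0.777), 0.568% (0.436 to 0.741) and 0.365% (0.251 to 0.531). The control hairpin had 7 gene-distant peaks among 2062 with a score under 75 and none among 848 with a score of at least 200 (upper Wilson bound 0.451%).

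The folds depended on how strong a peak had to be. With a score of at least 100 they were 90.0 (15.8 to 514) for shRNA5 and 148 (26.0 to 842) for shRNA7, resting on 1 control peak, and 0.538 (0.403 to 0.717) for doxycycline. Whole lists at this score gave 6.02, 8.74 and 0.819. With a fold enrichment of at least 10 they were 3.20 (1.60 to 6.42), 7.40 (3.87 to 14.2) and 0.192 (0.151 to 0.243), against 1.29, 1.93 and 0.346 for whole lists. The authors' false discovery rate (FDR) of gene-distant peaks had a median of 4.02% upon shRNA7 and 0.68% upon shRNA5. With an FDR of at most 5% the folds were 20.4 (11.2 to 36.97) for shRNA5 and 15.5 (8.53 to 28.3) for shRNA7. Whole lists at this FDR gave 4.49 and 4.10. The shRNA7 fold was thus no longer above that of shRNA5, though the gene-distant intervals overlapped. Each list was also cut to its 5287 strongest peaks by score. Gene-distant peaks then numbered 11 with the control hairpin, 20 upon shRNA5, 23 upon shRNA7, 20 in T-REx cells without doxycycline and 16 after its addition. The folds were 1.82 (0.885 to 3.74) for shRNA5, 2.09 (1.03 to 4.23) for shRNA7 and 0.800 (0.419 to 1.53) for doxycycline, so that the intervals for shRNA5 and doxycycline included 1. With distance taken to protein-coding genes alone the folds were 5.99 (5.11 to 7.03), 9.22 (7.90 to 10.8) and 0.436 (0.409 to 0.466).

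Gene-distant peaks had lower scores and shorter lengths than other peaks of the same list, but were not thinner in tags. Median fold enrichment was 7.15 (6.85 to 7.41) upon shRNA5 against 7.23, and 7.85 (7.39 to 8.12) upon shRNA7 against 7.50. It was 13.0 in both classes without doxycycline, and 9.46 (8.52 to 9.60) with it against 9.54. The control hairpin had 11.8 (10.8 to 20.6) against 12.9. The median score was 61.8 with the control hairpin (52.7 to 84.5) against 87.4 for its other peaks, 84.0 upon shRNA5 (78.0 to 93.6) against 113.5, and 92.8 upon shRNA7 (83.0 to 108.3) against 126.7. Among T-REx cells it was 66.4 without doxycycline (64.2 to 70.2) against 77.1, and 73.4 with it (68.0 to 82.4) against 87.2. The median tag density was 48.2, 47.4 and 46.0 tags per kb of peak in the control, shRNA5 and shRNA7 lists, beside 48.2, 46.0 and 45.9 for the other peaks. Without doxycycline it was 22.3 in both classes, and with doxycycline 34.1 (32.7 to 35.3) against 32.5. They were shorter, with medians of 1445 against 1840 bp upon shRNA5 and 1410 against 2032 bp upon shRNA7. Without doxycycline the median gene-distant peak held 12 tags and at least 1 in 4 held the minimum of 9, against 21 tags with doxycycline.

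**Figure D2:**
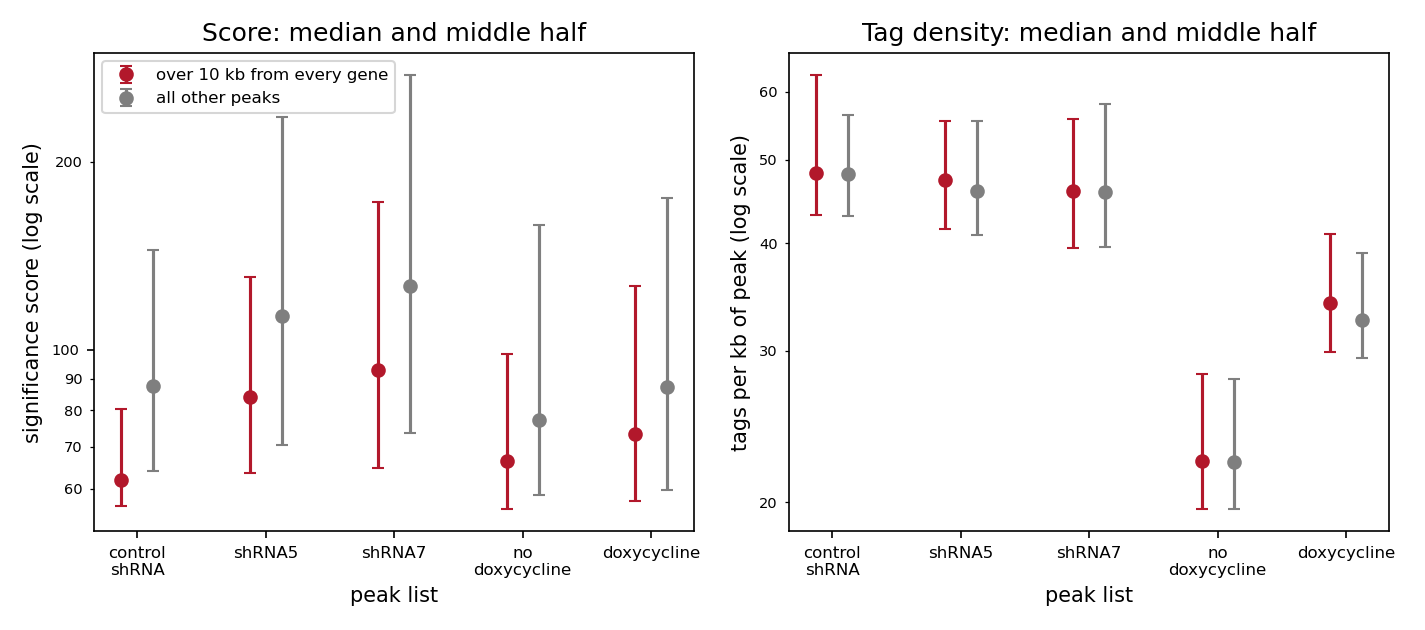
Significance score (left) and tags per kb of peak (right), both on log axes, for gene-distant peaks (red) and all other peaks (grey) of each list. Points are medians and bars run from the 25th to the 75th percentile of the peaks. Scores of gene-distant peaks were lower in each list, whereas the medians of tag density differed by under 2 tags per kb.

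Most gene-distant peaks lay close to the 10 kb limit. The median distance to the nearest gene was 24.6 kb with the control hairpin, 16.2 kb upon shRNA5, 17.0 kb upon shRNA7, 18.0 kb in the absence of doxycycline and 16.6 kb in its presence. Between 10 and 20 kb lay 60.7% of the shRNA5 peaks, 58.9% of the shRNA7 peaks, 55.4% of those without doxycycline and 65.7% of those with it, where only 26.3% of the gene-distant sequence lies. Per Mb, peaks upon shRNA7 fell from 1.02 at 10 to 20 kb through 0.388 and 0.173 to 0.0461 beyond 100 kb. The fall was shallower without doxycycline, from 1.58 to 0.221 per Mb, and steeper with it, from 0.709 to 0.00923 per Mb, the last value being 1 peak.

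**Figure D3:**
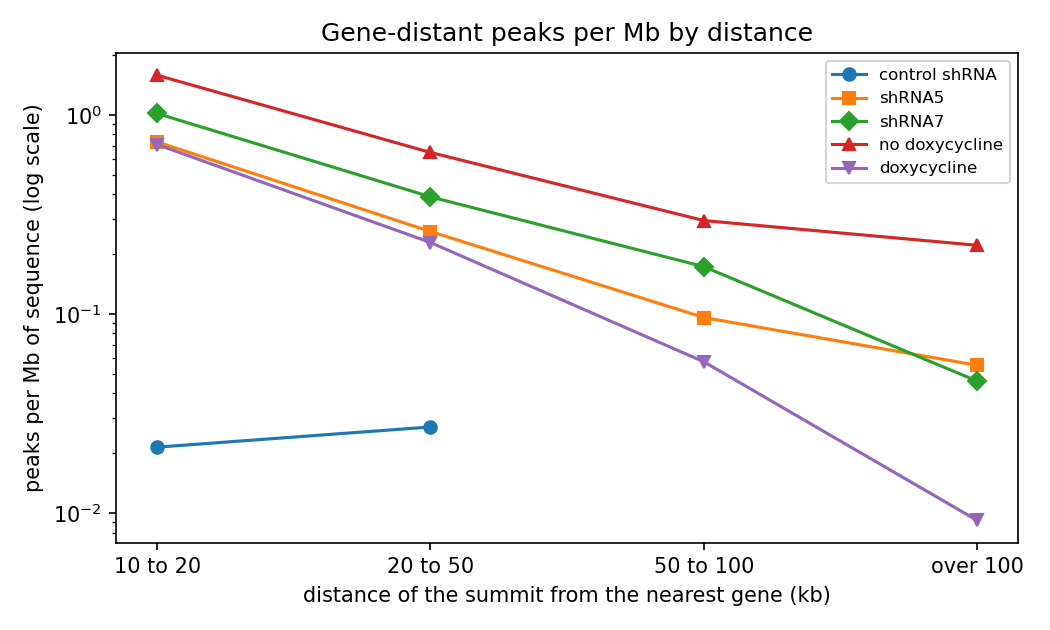
Gene-distant peaks per Mb of sequence (log axis) by distance from the nearest gene, 1 line per list. All 4 longer lists fall with distance, and beyond 100 kb the list without doxycycline is highest with 24 peaks. The control hairpin had no peak beyond 50 kb, and those points are not drawn.

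Peaks were about as many just inside as just outside the limit. Upon shRNA7, 49 peaks had a summit 9 to 10 kb from a gene and 40 one 10 to 11 kb away; without doxycycline the numbers were 61 and 56. Just inside the class the nearest peak upon shRNA7 lay 10061 bp from KRT18P1, with a score of 78.4, and the nearest outside it lay 9997 bp from PLK4, with a score of 113.0. In the control list the peak just outside was a strong one, 9982 bp from LINC00854 with a score of 2246. The farthest peak of each list was weak in 4 of 5 lists. That of the control hairpin lay 41.5 kb past LINC02714, with a score of 81.8, that of shRNA5 395.3 kb past RNU7-145P (score 66.1), that without doxycycline 335.4 kb from LINC02233 (score 54.3) and that with doxycycline 101.1 kb from RPL31P53 (score 77.6). The farthest upon shRNA7 was stronger, at chr9:83798366-83799624, 226.1 kb from the pseudogene RPS20P25, with 94 tags and a score of 314.8.

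Between 10 and 20 kb, gene-distant peaks of both RECQL5 hairpin lists lay past gene ends more often than the sequence there. Over all distances the nearest gene was met at its end, that is, the peak lay downstream of it, for 58.0% of peaks upon shRNA5 (51.5 to 64.3) and 56.7% upon shRNA7 (51.2 to 62.0), against 52.4% of the gene-distant sequence, which both intervals included. Within 20 kb of the gene these shares were 61.8% (53.4 to 69.5) and 60.8% (53.7 to 67.5), against 52.1% of sequence. In the T-REx arm the shares of 52.5% (48.3 to 56.8) without doxycycline and 53.2% (46.3 to 60.0) with it had intervals that included the share of sequence, as did those within 20 kb, at 54.1% (48.4 to 59.7) and 59.1% (50.6 to 67.1). The nearest gene was protein-coding for 39.9% to 47.8% of peaks in the 4 longer lists, and a pseudogene for 20.4% to 24.6%.

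The strongest gene-distant sites were shared widely. At chr17:41392247-41396626, upstream of LINC00854, whose summit window opens the sequences above, the score was 3100 upon shRNA5 (971 tags), 3100 upon shRNA7 (1215 tags), 3100 without doxycycline (524 tags) and 3118 with it (414 tags). The control hairpin also had a peak there, with 599 tags and a score of 2246, ranked 9 in its list, but its summit lay 9.98 kb from the gene and so just missed the limit. This site is thus a peak of high rank in all 5 lists that the limit splits.

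Upstream of GNA12, at chr7:2913102-2914733 and about 30 kb from the gene, the control hairpin list had 81 tags (score 149.6), shRNA5 190 tags (649.0), shRNA7 343 tags (1708), no doxycycline 92 tags (935.3) and doxycycline 60 tags (388.0). Both RECQL5 hairpins were above the control, and doxycycline was below its absence. The fold enrichment did not follow the score, at 31.6 with the control hairpin, 25.9 upon shRNA5 and 37.7 upon shRNA7. At chr19:5351975-5353287, 11.8 kb upstream of PTPRS, a receptor tyrosine phosphatase gene, tags were 75, 109 and 126 in the hairpin arm in the same order, and 97 without and 76 with doxycycline, with scores of 79.2, 435.2, 345.0, 1085 and 553.3.

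The pair of sites shown above with the GC box had fewer tags in each list than the site upstream of LINC00854. At chr21:38935455-38937631 there were 49 tags with the control hairpin, 108 upon shRNA5, 194 upon shRNA7, 40 in the absence of doxycycline and 70 in its presence. At chr6:157007145-157009246, 24.7 kb past the histone pseudogene H3P28, there were 71, 81, 153, 32 and 28 tags. Both sites had most tags upon shRNA7 within the hairpin arm, and they differed in direction with doxycycline. At the tandem repeat of chr11:134721101-134722544 tags were 88, 174, 81, 65 and 42, with shRNA5 highest. Tags are not scaled for depth, so an order between lists is not a measured change.

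Some high-scoring peaks were not in all lists. The third gene-distant peak of shRNA7, at chr14:54833521-54835182 and 29.3 kb upstream of CDKN3, a cell-cycle phosphatase gene, had 208 tags and a score of 994.5. It had 105 tags upon shRNA5 (score 219.0), 12 without doxycycline (53.0), and no peak with doxycycline or the control hairpin. The third of shRNA5, at chr2:228434174-228438788 and 11.2 kb past the end of AGFG1, had 293 tags, and shRNA7 covered it with a peak of 1098 tags whose summit lay 7.05 kb past the gene. No peak was called there in the other 3 lists.

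The gene-distant peaks ranked 2 and 3 without doxycycline, and that ranked 3 with it, belonged to copies of 1 sequence. In all, 7 regions of chromosome 5 shared at least 50% of the 36-base stretches of the shorter with another of them. All 7 held a peak in both RECQL5 hairpin lists and both T-REx lists, and 2 did so with the control hairpin. At both copies with a control peak, 0% of the 36-base stretches of the summit window occur only once in the genome, so reads of this length cannot be placed in a single copy, and the methods name no filter on reads with several equal matches.

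Repeated sequence was more frequent under gene-distant peaks than under peaks within 10 kb of genes in each list. Fewer than 50% of the 36-base stretches of the summit window were unique in the genome for 33.9% of gene-distant peaks without doxycycline (29.99 to 38.0) and 13.9% with it (9.82 to 19.4), against 13.7% and 5.01% of peaks within 10 kb of a gene. The shares were 36.4% with the control hairpin (15.2 to 64.6), 8.48% upon shRNA5 (5.50 to 12.9) and 12.8% upon shRNA7 (9.59 to 16.9), against 2.79%, 2.85% and 3.95%. Without doxycycline such peaks held a median of 10 tags, against 15 for those with an all-unique window. With windows at least 50% unique, the fold for doxycycline was 0.496 (0.413 to 0.595) in place of 0.379. Across all 849 regions, 46 fell into 16 families of copies. The part of misplaced reads in these peaks was not tested.

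Sharing between lists was examined as overlap by at least 1 bp with any peak of the other list. All 11 control peaks were overlapped upon shRNA5, where 97.4% of the whole control list was, and 10 of 11 upon shRNA7, where 88.4% was. Upon shRNA5, 145 of 224 gene-distant peaks were overlapped by shRNA7 (64.7%, 58.3 to 70.7), against 85.2% of all shRNA5 peaks. In the reverse direction it was 131 of 321 (40.8%, 35.6 to 46.3), against 51.9%. The control list overlapped 12 of the 224 shRNA5 peaks and 11 of the 321 shRNA7 peaks, where it overlapped 19.0% and 11.7% of all peaks. Absence from the control list may partly depend on its length, as stated above. Gene-distant peaks were thus shared between the RECQL5 hairpins at lower shares than all peaks of these lists. All shRNA7 peaks together covered only 0.0864% of gene-distant sequence.

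With doxycycline, 120 of 201 gene-distant peaks were overlapped by the list without it (59.7%, 52.8 to 66.2), close to the 61.8% of all its peaks. Without doxycycline, 118 of 531 were overlapped by the list with it (22.2%, 18.9 to 26.0), against 45.6% of all peaks. Overlap by the other arm was also lower than for whole lists. It was 43.3% upon shRNA5 (36.98 to 49.9) against 68.6%, 43.9% upon shRNA7 (38.6 to 49.4) against 55.3%, 30.1% without doxycycline (26.4 to 34.2) against 66.2%, and 49.8% with it (42.9 to 56.6) against 75.1%. Of the 11 control peaks, 10 were overlapped in the T-REx arm, where 95.6% of the control list was.

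Sharing rose with score. For scores of at least 200, 27 of 29 gene-distant shRNA5 peaks were overlapped by shRNA7 (93.1%, 78.0 to 98.1), beside 93.2% of other peaks in that range, and 52 of 54 without doxycycline by the list with it (96.3%, 87.5 to 99.0), beside 94.7%. For scores of 50 to 75 the shares were 47.8% (37.8 to 58.0) beside 72.9% upon shRNA5, and 5.40% (3.40 to 8.47) beside 22.7% without doxycycline. In the reverse directions these low-score shares did not differ beyond counting error, at 19.8% (13.8 to 27.7) beside 19.1% for shRNA7 in shRNA5, and 40.8% (31.8 to 50.4) beside 37.1% for doxycycline in no doxycycline. Strong peaks were not always shared as widely as others, since 76.1% (64.7 to 84.7) of shRNA7 peaks with a score of at least 200 were overlapped by shRNA5, beside 87.3%. Overlap of the list without doxycycline by the hairpin arm was lower in the lowest bin, at 14.3% (10.9 to 18.6) beside 50.5%, and in the highest, at 75.9% (63.1 to 85.4) beside 95.9%. Without doxycycline, the overlap by the list with it was 33.8% (27.9 to 40.2) for all-unique windows and 10.6% (6.90 to 16.0) for those under 50% unique.

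Over the 849 merged regions, 596 had a peak in a single list, 138 in 2, 58 in 3, 47 in 4 and 10 in 5. The set without doxycycline alone was the most frequent, with 336 regions, and 140 of the 336 gene-distant peaks of that list that no other list overlapped had windows under 50% unique. No region was in the control hairpin list alone. Both RECQL5 hairpins had a peak in 140 regions, of which 129 lacked a control peak, and 54 of these were in no other list. Lacking a control peak was usual in whole lists too, as the control overlapped only 19.0% of all shRNA5 and 11.7% of all shRNA7 peaks. Merged regions of all peaks were not counted, so the region counts here cannot be called particular to gene-distant sequence. Both arms had a peak in 165 regions, the hairpin arm alone in 249 and the T-REx arm alone in 435.

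**Figure D4:**
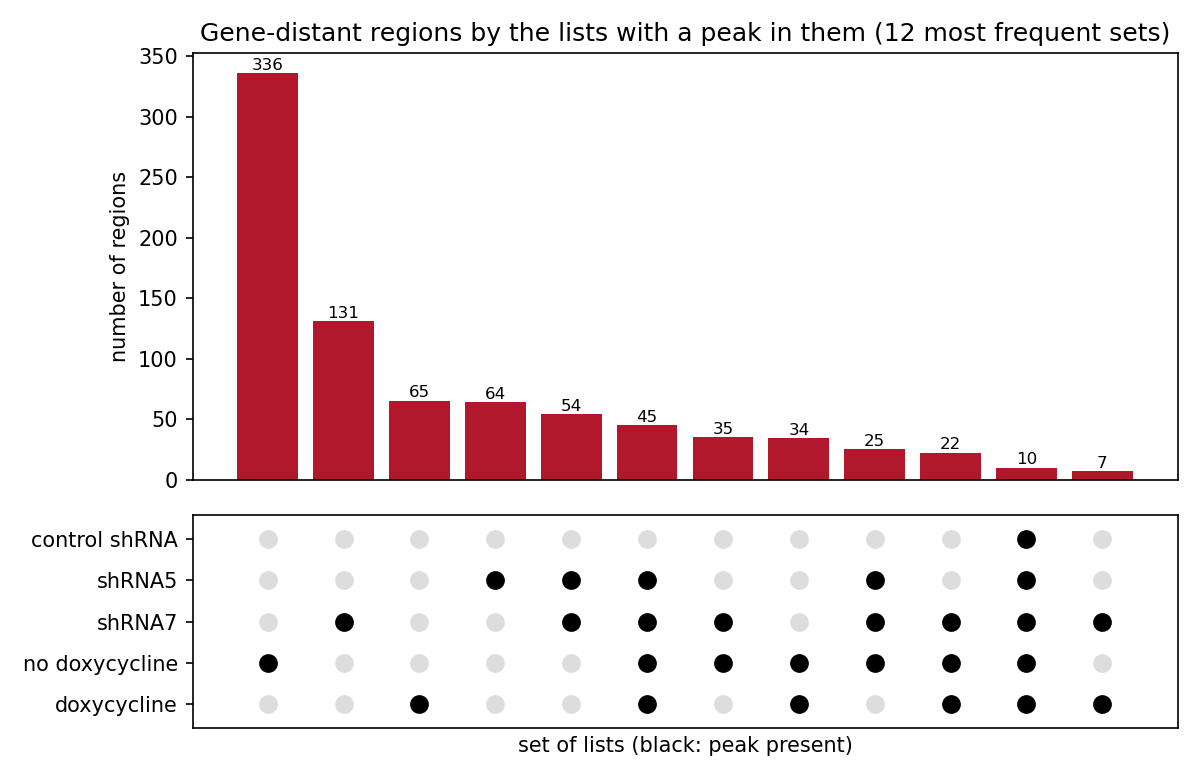
Number of merged gene-distant regions (bars) for the 12 most frequent sets of lists, with black dots below each bar for the lists that had a peak there. Regions of 1 list lead, with 336 without doxycycline and 131 upon shRNA7, and 45 regions were in all lists but the control hairpin.

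Some gene-distant peaks lay close to one another along chromosomes. The same share was not computed for other peaks or for gene-distant sequence, so whether it is high or low was not tested. Another gene-distant summit of the same list lay within 50 kb for 24.1% of peaks upon shRNA5 (18.97 to 30.1), 24.0% upon shRNA7 (19.6 to 28.9), 27.7% without doxycycline (24.0 to 31.6) and 21.4% with it (16.3 to 27.6). None of the 11 control peaks had such a neighbour, which allows a share of up to 27.3%, taken as 3 counts of 11 (the upper Wilson bound is 25.9%). The clustered share depended on the peaks kept. A neighbour had to be kept as well, so the share can change with the number of peaks alone, and a part of strength was not tested. With a fold enrichment of at least 10, 0 of 32 peaks upon shRNA5 and 0 of 74 upon shRNA7 were clustered (upper Wilson bounds 10.7% and 4.93%), and with a score of at least 100 the shares were 12.2%, 18.2% and 18.2% upon shRNA5, upon shRNA7 and without doxycycline. With protein-coding genes alone, which admits more peaks, they were 47.3% to 64.9% in the 4 longer lists. The median distance to the closest peak that was not gene-distant was 33.2 to 43.0 kb in the 4 longer lists.

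Most of the larger clusters of the hairpin arm lay in mostly unique sequence, and the genes named are the nearest ones, over 10 kb away. Upon shRNA5 the largest was at chr21:17263752-17274679, with 5 peaks and 404 tags, 11.9 to 21.6 kb from USP25, a ubiquitin protease gene. In that interval shRNA7 had 2 peaks with 744 tags in all, and the other 3 lists had none. The next, at chr22:35832062-35855224, held 4 peaks and 501 tags, 15.7 to 32.5 kb from MCM5, which encodes a subunit of the replicative helicase. There shRNA7 had 2 peaks with 421 tags, doxycycline 1 with 15 tags, and the control hairpin and no doxycycline none. The third, at chr2:172619148-172630835 between DYNC1I2 and SLC25A12, held 3 shRNA5 peaks with 635 tags, 1 shRNA7 peak of 794 tags, 1 control peak of 59 tags and 2 peaks with 24 tags without doxycycline.

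Upon shRNA7 the largest cluster was at chr1:143928729-144073967, with 9 peaks and 1147 tags over 145.2 kb. The list without doxycycline had 12 gene-distant peaks there with 232 tags, its largest cluster as well, shRNA5 had 3 and doxycycline 2. A median of 9.81% of the 36-base stretches of the summit windows was unique there upon shRNA7. The next largest shRNA7 clusters had 4 peaks each, at chr7:158395305-158405736 near MIR5707 and THAP5P1, with 353 tags where shRNA5 had 2 peaks and doxycycline 1, and at chr1:51461020-51478328 near CDKN2C, a cell-cycle inhibitor gene, with 328 tags. The CDKN2C interval held no gene-distant peak of another list.

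Without doxycycline the second cluster, at chr2:232468899-232546903 near TEX44, held 9 peaks with 244 tags in mostly unique sequence, and doxycycline had 4 there with 133 tags. The third, at chr19:48415715-48453554 near BSPH1, held 8 peaks with 197 tags, none of them in another list, and 7 of its regions were copies of 1 sequence. With doxycycline the largest was at chr1:26814864-26828130 near HMGN2, a nucleosome-binding protein gene, with 6 peaks and 159 tags, where no doxycycline had 3, shRNA7 2 and shRNA5 1. The second, at chr19:44693241-44701100 between the zinc finger genes ZNF226 and ZNF227, held 5 peaks with 275 tags and had no gene-distant peak in another list. The third, at chr2:232468929-232552464, overlapped the TEX44 cluster, with 5 peaks and 152 tags. A cluster near DDIT4 and DNAJB12 on chromosome 10 was among the largest of 3 lists, with 3 peaks and 598 tags upon shRNA7, 5 and 104 without doxycycline, and 4 and 122 with it.

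Chromosomes differed in their share. Upon shRNA7, chromosome 6 held 53 of 321 gene-distant peaks (16.5%, 12.9 to 21.0), against 6.38% of gene-distant sequence and 7.29% of the other peaks of that list. With doxycycline, chromosome 10 held 28 of 201 (13.9%, 9.82 to 19.4), against 4.76% of the sequence and 7.08% of other peaks. Upon shRNA5, chromosome 5 led with 30 of 224 (13.4%, 9.54 to 18.5), against 7.15% and 5.98%. Per Mb of gene-distant sequence, chromosome 19 was highest without doxycycline (5.01, 23 peaks) and with it (2.40, 11 peaks). Chromosome 22 was highest upon shRNA5 (2.11, 8 peaks) and shRNA7 (1.58, 6 peaks). These chromosomes hold only 4.59 and 3.79 Mb of such sequence. The clusters near BSPH1, ZNF226 and MCM5 held 8 of the 23, 5 of the 11 and 4 of the 8 peaks. Within 1 Mb of an assembly gap of at least 50 kb lay 19.4% of gene-distant peaks without doxycycline (16.3 to 22.98) and 17.4% with it (12.8 to 23.3), against 9.94% of the sequence, while the intervals upon shRNA5 (8.04%, 5.14 to 12.3) and shRNA7 (11.5%, 8.48 to 15.5) included it.

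The sequence under gene-distant peaks differed from gene-distant sequence at large. A CpG ratio, observed over expected CpG, above 0.6 was found in the 300-base window of 22.3% of peaks upon shRNA5 (17.4 to 28.2), 20.2% upon shRNA7 (16.2 to 24.99), 28.6% without doxycycline (24.9 to 32.6), 34.3% with it (28.1 to 41.1) and 5 of 11 with the control hairpin. Of all 2355429 windows of that length over 10 kb from genes, 1.90% had such a ratio, and of peaks within 10 kb of a gene 29.5% to 45.8% did. AT content over 2 kb had a median of 51.7% to 55.7% in the 4 longer lists, against 61.9% of gene-distant sequence. CpG-rich windows were more frequent among shared peaks. Upon shRNA5 the share was 12.5% (6.47 to 22.8) for peaks in no other list and 41.6% (31.9 to 52.0) for those in at least 2 others, and with doxycycline 15.4% (8.58 to 26.1) and 47.7% (37.6 to 58.0).

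The AP-1 letters, which include the core site of the Fos and Jun factors that act at many enhancers, were more frequent under gene-distant peaks than under peaks near genes. Their middle letter N stands for any base, so the matches are wider than that core site. The promoter strings searched, each on both strands, were the TATA box (TATAAAAG), the GC box (GGGCGG), the CCAAT box (GCCAAT), the ETS site (CCGGAAG) and the core of the NRF1 site (GCGCATGCG). The others were the AP-1 site (TGANTCA), the cAMP response element or CRE (TGACGTCA), the E-box (CACGTG), the B box of tRNA genes (GTTCGANNC) and part of the CTCF motif (GGNGGCAG). The GC box and the CTCF string can share bases. The AP-1 letters were in 30.4% of gene-distant peaks upon shRNA5 (24.7 to 36.7), 19.3% upon shRNA7 (15.4 to 24.0), 11.3% without doxycycline (8.88 to 14.3), 16.4% with it (11.9 to 22.2) and 3 of 11 with the control hairpin. They were in 9.78% of all gene-distant windows and in 6.46% to 9.16% of peaks within 10 kb of a gene, and the interval without doxycycline included the share of windows. In all-unique windows the shares were 33.7% upon shRNA5 (27.1 to 41.0), 24.5% upon shRNA7 (19.2 to 30.7), 16.7% without doxycycline (12.3 to 22.1) and 18.5% with it (12.9 to 25.9).

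The AP-1 letters did not go with sharing in 1 direction over the lists, and no difference between lists was tested. Upon shRNA5 they were in 42.2% (30.9 to 54.4) of the 64 peaks found in no other list and 25.8% (17.9 to 35.8) of the 89 in at least 2 others. Without doxycycline they were in 8.63% (6.08 to 12.1) of the 336 found in no other list and 18.9% (12.7 to 27.2) of the 111 in at least 2 others. Windows under 50% unique were 140 of these 336 and 22 of these 111, and the part of repeated sequence in the difference was not tested. The intervals overlapped upon shRNA5, upon shRNA7, at 16.8% (11.4 to 24.1) and 20.6% (13.9 to 29.4), and with doxycycline, at 16.9% (9.72 to 27.8) and 18.2% (11.5 to 27.5). Where the letters occurred, the nearest match lay a median of 58 to 82 bases from the summit in the 4 longer lists, and 30.3% to 46.7% of these peaks had it within 50 bases. Under peaks within 10 kb of a gene the medians were 68 to 81.5 bases and the shares 32.0% to 35.9%. The intervals of the gene-distant shares included these shares in each of the 4 lists. The GC box was in 14.3% to 29.4% of gene-distant peaks of these lists, against 2.47% of gene-distant windows. Unlike the AP-1 letters, it was less frequent than under peaks within 10 kb of a gene, at 22.2% to 37.1%. The TATA box was in 0.942% to 1.99%, against 2.68% of windows. The ETS site was in 3.57% to 6.21%, against 0.488%, and the E-box in 3.58% to 7.96%, against 2.33%. The CRE was in 0.498% to 2.23%, against 0.0805%, and the NRF1 core in 0.312% to 1.34%, against 0.0103%. The CCAAT box was in 6.40% to 13.8%, against 10.5%, and the CTCF string in 5.80% to 18.1%, against 6.34%. The B box of tRNA genes, which RNA polymerase III transcribes, was in 0.935% to 1.99%, beside 1.38% of windows. A match is a description of the letters only, and whether a factor binds there was not measured.

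**Figure D5:**
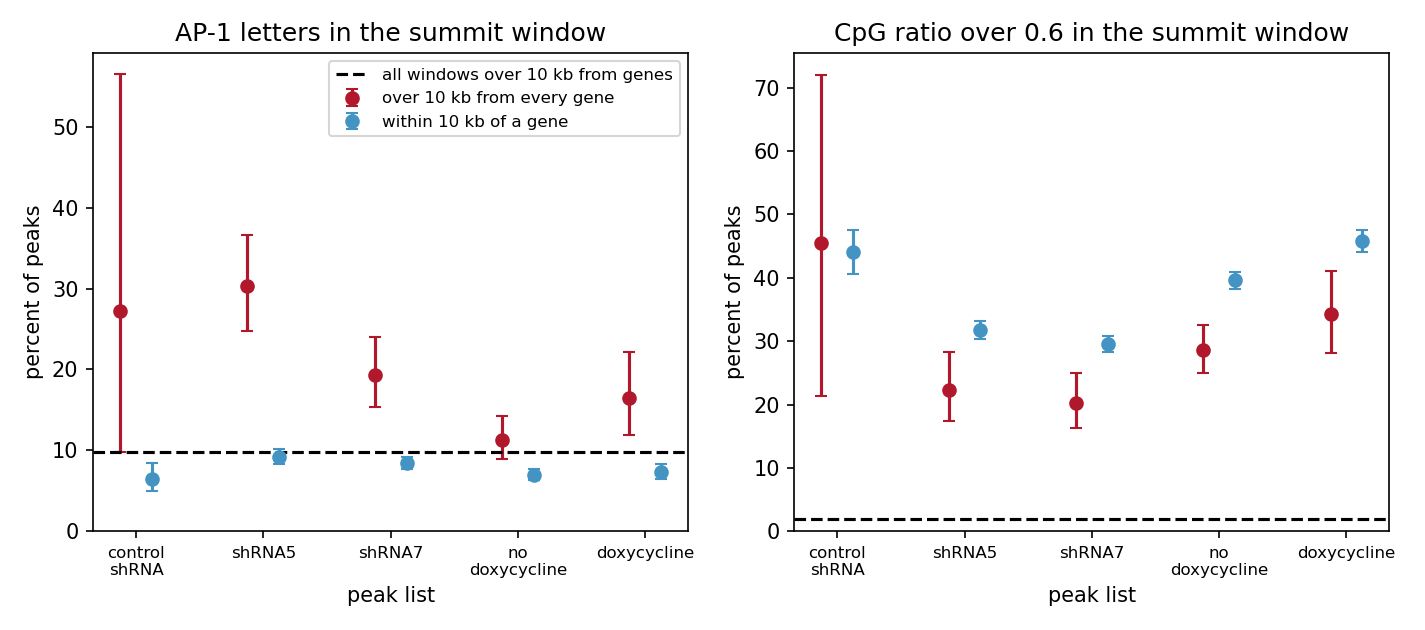
Percent of peaks whose 300-base summit window held the AP-1 letters (left) or a CpG ratio over 0.6 (right), for gene-distant peaks (red) and peaks within 10 kb of a gene (blue), with 95% Wilson intervals. The dashed line marks all gene-distant windows of that length, at 9.78% and 1.90%. Gene-distant peaks upon shRNA5 stand at 30.4% for AP-1, above their near-gene peaks at 9.16%.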

How the data were processed

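The authors demultiplexed reads with CASAVA 1.8, aligned them to hg19 with Bowtie 0.12.7, removed reads in blacklisted regions, and called peaks with MACS 1.4.2, each RNAPII library against IgG. The 5 deposited lists give each peak's position, its tag count (not normalised by the authors), a score (deposited as 10 times the negative log10 of the p-value), the fold enrichment that the authors computed as a ratio over local background, and the authors' FDR in percent. A summit was placed at start + offset − 1 and its distance taken to the nearest of 64486 genes (GENCODE 44 lifted to GRCh37, which may be more recent than the authors' annotation). Runs of at least 100 undetermined bases were left out of sequence lengths.

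Uniqueness is the percent of a 300-base summit window's 36-base stretches that occur once in the GRCh37 chromosomes, on either strand. Shares have 95% Wilson intervals, folds the same interval turned into odds, medians an order-statistic interval. Clusters chain summits within 50 kb. Regions were named by rank of score, cluster size, presence in all 5 lists and distance. Python 3.11.15, numpy 2.4.6, pandas 2.3.3 and scipy 1.17.1 were used. The functions for distance, sequence length, overlap, chaining, counts of stretches and motif search were tested on simulated data. The members, motifs and comparisons were chosen with earlier results of these data known. Groups hold 1 library, so there was no test. The sequence and values of single copies in 1 repeated family are not reported here.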

Additional observations from a re-analysis of the deposited data

How the results depend on the processing

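Of 202 values over 27 results recomputed with another setting, 125 moved by less than counting error and 77 by more. Only folds in number of peaks could be labelled as reversed, and 0 of them were. No paired analysis was possible because there is 1 library a group, and for that reason no replicate could be left out either. The settings that keep summit windows by uniqueness were chosen after seeing the data.

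With a score of at least 100, the gene-distant share of the control, shRNA5, shRNA7, no doxycycline and doxycycline lists was 0.0456%, 0.682%, 0.772%, 0.736% and 0.483%. Clustered shares were then 12.2%, 18.2% and 18.2% in shRNA5, shRNA7 and no doxycycline, and tag densities 56.4, 55.9, 32.7 and 43.4 in the 4 longer lists. The folds were 90.0, 148 and 0.538. Overlap was 74.6% for doxycycline in no doxycycline and 100% for the control in shRNA7, the latter from 1 peak (20.7 to 100). With a fold enrichment of at least 10, the shRNA5 share was 0.579%, clustered shares 0%, 0% and 19.4%, densities 63.6, 62.1 and 39.7 in shRNA5, shRNA7 and doxycycline, and folds 3.20, 7.40 and 0.192. Overlap was then 70.0% and 60.0% for the control in shRNA5 and shRNA7, and 73.2% for doxycycline in no doxycycline. With an FDR of at most 5%, the shRNA7 share was 0.790%, its density 54.9, its fold 15.5 and the overlap of shRNA5 in shRNA7 51.3%.

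Over 20 kb, shares were 0.371%, 0.411%, 0.504% and 0.204% in the 4 longer lists, clustered shares 12.5%, 21.9% and 8.70% in shRNA5, no doxycycline and doxycycline, and the doxycycline fold 0.291. Overlap in shRNA7 was then 55.7% for shRNA5 and 100% for the control, the latter from 7 peaks (64.6 to 100). From both peak edges the shares were 0.806% and 0.869% in shRNA5 and shRNA7. With protein-coding genes alone, the shares were 3.35%, 4.48%, 5.08%, 6.44% and 3.90%, clustered shares 47.3%, 54.7%, 64.9% and 55.9%, folds 5.99 and 9.22, and overlap 73.0% (shRNA5 in shRNA7) and 68.2% (doxycycline in no doxycycline). Lists cut to 5287 peaks, which left unlike lowest scores, gave shares of 0.378%, 0.435%, 0.378% and 0.303% and folds of 1.82, 2.09 and 0.800.

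Requiring 50% of both peaks to be shared gave overlaps of 51.8% (shRNA5 in shRNA7) and 49.3% (doxycycline in no doxycycline), and summits within 500 bp gave 46.4% for the former. With neighbours within 100 kb, 29.0% of shRNA7 peaks were clustered. With windows at least 50% unique, clustered shares were 18.996% and 21.8% in shRNA7 and no doxycycline, density 22.99 without doxycycline and the doxycycline fold 0.496. The overlap of the control in shRNA7 was 100%, from 7 peaks (64.6 to 100). The cause of these moves was not tested. Library totals are not in the lists, and 11 control peaks limit every gene-distant fold against the control.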
